A study of Mus musculus with 2 samples.

Results

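The Dlk1-Dio3 domain on mouse chromosome 12 is an imprinted locus, and its noncoding RNAs were described here in 2 small RNA-seq libraries. The members were all rows of the deposited Ensembl noncoding RNA table, of any class, that lie on the plus strand of chr12:109500000-109760000 on GRCm38. The rule used position alone and no measured value, but only genes with a row in the table could be taken. Every member had at least 1 read in its higher library, and why other annotated genes had no row was not analysed. The rule took 30 of 1596 rows, which belonged to 24 genes: 9 transcripts of the long noncoding RNAs Meg3, Rian and Mirg, 3 snoRNAs and 18 microRNA genes. The first and the last member lay 208 kb apart, and 0 rows of the table lay on the minus strand of this window.

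The cells were primary fibroblasts grown from ear tissue of C57BL/6 mice (C57BL/6-J in the study's methods) of about 3 weeks of age. AF25-high cells received 3GA-AF25, a 3rd generation antisense oligonucleotide that raises the snoRNA AF357425, at 200 nM. AF25-low cells received GM-AF25, a gapmer, at 500 nM; gapmers are antisense oligonucleotides whose RNA target is cleaved by RNase H. Both cultures were first kept for 48 h in 10 μM KN-93, a CaMK-II inhibitor that holds cells in G1, and were then transfected for 24 h. There was 1 library per condition and no library of a control oligonucleotide was used here, so a difference has no replicate check and no p-value is given. The level of AF357425, the chemistry of the oligonucleotide and its dose differ between the same 2 libraries and cannot be told apart.

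In this domain the protein-coding genes Dlk1, Rtl1 and Dio3 are expressed from the paternal chromosome, whereas Meg3, Rian and Mirg, the snoRNAs and the microRNAs are expressed in one direction from the maternal chromosome. The C/D box snoRNAs are cut from introns of Rian and carry a C box and D boxes that bind the proteins of the methylation complex. Stretches next to the D boxes pair with a target RNA and direct 2′-O-methylation of its ribose. Many snoRNAs of this locus have no known target and are called orphan. A first group of microRNAs lies antisense to Rtl1, and a second, large group lies around and within Mirg. The snoRNA that was targeted in the study, AF357425, is itself encoded at this locus.

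The snoRNAs are shown first because they are the gene family of the targeted RNA. They are given on the plus strand, 5′ to 3′, from the GENCODE M21 transcripts of GRCm38, with every C box (TGATGA) and D box (CTGA) in capitals. AF357428 lies at chr12:109679945-109680013, AF357341 at chr12:109681519-109681593 and Gm23787 at chr12:109684962-109685034, and these 3 are members. AF357425, at chr12:109636012-109636084, is given for comparison.
AF357428: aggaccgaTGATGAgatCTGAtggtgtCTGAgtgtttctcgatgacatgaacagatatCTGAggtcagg
AF357341: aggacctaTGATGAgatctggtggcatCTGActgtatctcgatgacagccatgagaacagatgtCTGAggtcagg
Gm23787: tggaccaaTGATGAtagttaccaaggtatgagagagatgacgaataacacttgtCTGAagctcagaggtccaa
AF357425: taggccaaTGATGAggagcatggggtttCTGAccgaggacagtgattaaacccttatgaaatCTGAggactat

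All 3 listed snoRNAs carried a C box at position 9 and at least 1 D box downstream of it. Of the 23 snoRNA genes annotated on the plus strand of the window, 18 (78.3%) held TGATGA and 20 (87.0%) held CTGA. AF357428 and AF357341 were the closest pair among the 3, with 62 identical positions in 75 aligned columns (82.7%) and a longest shared run of 13 bases. AF357428 shared a longer run, of 20 bases, with the unlisted neighbour Gm22981, and AF357341 shared one of 24 bases with Gm25856. Gm23787 was more distant, at 56.2% identity to AF357428 and 57.0% to AF357341. TGGGGTT, the letters that AF357425 carries just before its first D box, stood in 1 of the 23 genes (4.35%), AF357425 itself.

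For the microRNA genes, mature sequences are given for Mir337, the gene with the most reads, for the 4 genes whose ratio departed most between the libraries (Mir431, Mir667, Mir411 and Mir541) and for Mir379, whose 3p arm has the seed of Mir411. They come from RefSeq on GRCm38.p6, with the seed, bases 2 to 8, in capitals.
miR-337-5p: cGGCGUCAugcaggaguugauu
miR-337-3p: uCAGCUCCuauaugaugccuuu
miR-431-5p: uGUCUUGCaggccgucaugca
miR-431-3p: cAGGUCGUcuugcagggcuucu
miR-379-5p: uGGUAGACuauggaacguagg
miR-379-3p: uAUGUAACaugguccacuaacu
miR-411-5p: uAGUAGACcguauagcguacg
miR-411-3p: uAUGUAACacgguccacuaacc
miR-667-5p: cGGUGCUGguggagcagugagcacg
miR-667-3p: uGACACCUgccacccagcccaag
miR-541-5p: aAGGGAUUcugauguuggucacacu
miR-541-3p: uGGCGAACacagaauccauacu

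RefSeq held mature sequences for 16 of the 18 microRNA gene members, 31 in all. Among these, the seed AUGUAAC of miR-379-3p and miR-411-3p was the one shared by members, and both arms were identical at 20 of 22 positions. The 5p arms of Mir379 and Mir411 were identical at 14 of 21 positions. The seed GGUAGAC of miR-379-5p was also that of miR-1193-5p, and the seed UGGAUAU of miR-376c-5p that of miR-376b-5p; neither Mir1193 nor Mir376b had a row among those used here.

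Small RNA-seq reads are short, so reads on a long noncoding RNA are fragments of it and no measure of the full-length transcript. Reads under a microRNA gene in this table are likewise no microRNA level, since most microRNA reads were assigned to miRBase, which was not analysed here. Values are reads and RPM, the reads-per-million level relative to the whole library, and every ratio is AF25-high over AF25-low, with a 95% interval (Clopper-Pearson, from AF25-high reads over the reads of both libraries). Reads are PCR copies without molecular identifiers and so are not independent molecules. The intervals cover counting error only, and the spread from culture to culture was not measured. The total of the AF25-high library was estimated at 28856715 reads, and its Ensembl table held 375931 reads. For AF25-low the estimate was 29103700 reads, and the table held 533803. Each total is a median, over 38 anticodons, of tRNA reads divided by the RPM that the study lists. Most single anticodons differed from this median by more than 1%. Every RPM and every ratio relative to the whole library rests on these estimates, and the intervals leave out their error. Of the fixed microRNA marker genes, 6 of 10 mesenchymal ones had a row, with 3836 reads in AF25-high, against 4481 in AF25-low. For other cell types 1 of 26 had a row, an epithelial one with 6 AF25-high and 0 AF25-low reads. Since most microRNA reads were assigned to miRBase, a missing row does not show that a cell type was absent.

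All members together had 1717 reads in AF25-high, against 2053 in AF25-low, which is 59.5 RPM for AF25-high and 70.5 RPM for AF25-low. The ratio was 0.843 (95% interval 0.791 to 0.900). These reads were 0.457% of the table in AF25-high and 0.385% in AF25-low, since the table total was proportionally smaller in AF25-high (ratio 0.710). Relative to that total the sum was therefore higher in AF25-high, with a ratio of 1.19, and its direction depended on the scaling. The total does not stand for its typical row: over the 436 rows with at least 20 reads the median log2 ratio was 0.06. The ratio of the locus was 0.732 with the deposited size factors. Rian transcript 2 alone held 550 of the AF25-low reads, and without it the sum was 1360 AF25-high and 1503 AF25-low reads, a ratio of 0.913 (0.847 to 0.983).

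Of the 30 members, 15 had at least 20 reads in the higher library, and these are given one by one. The member just inside this minimum was Mir127, with 21 reads, and the member just outside was Mir329, with 19. The 15 members below it had 1 to 19 reads in their higher library and together 97 reads in AF25-high, against 90 in AF25-low (ratio 1.09, 0.807 to 1.46), and for 0 of them did the interval exclude 1.

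At the 2-fold threshold, the members stood near the shares of the whole table. Of the 15 members with at least 20 reads, 2 had a ratio of at least 2, where the share over all 436 such rows of the table was 16.1%. Likewise 2 had a ratio of at most 0.5, where the table had 12.2%. The interval lay above 1 for 2 members (29.1% of the rows of the table) and below 1 for 5 (26.6% of those rows), and it held 1 for 8. These interval counts are relative to the whole library, and they depend on the scaling. The ratio was above 1 for 7 members and below 1 for 8, against 229 and 207 rows of the table. With the deposited size factors this split was 6 to 9 for the members and 193 to 242 for the table, and with the total of the Ensembl table it was 10 to 5 and 310 to 126.

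**Figure D1:**
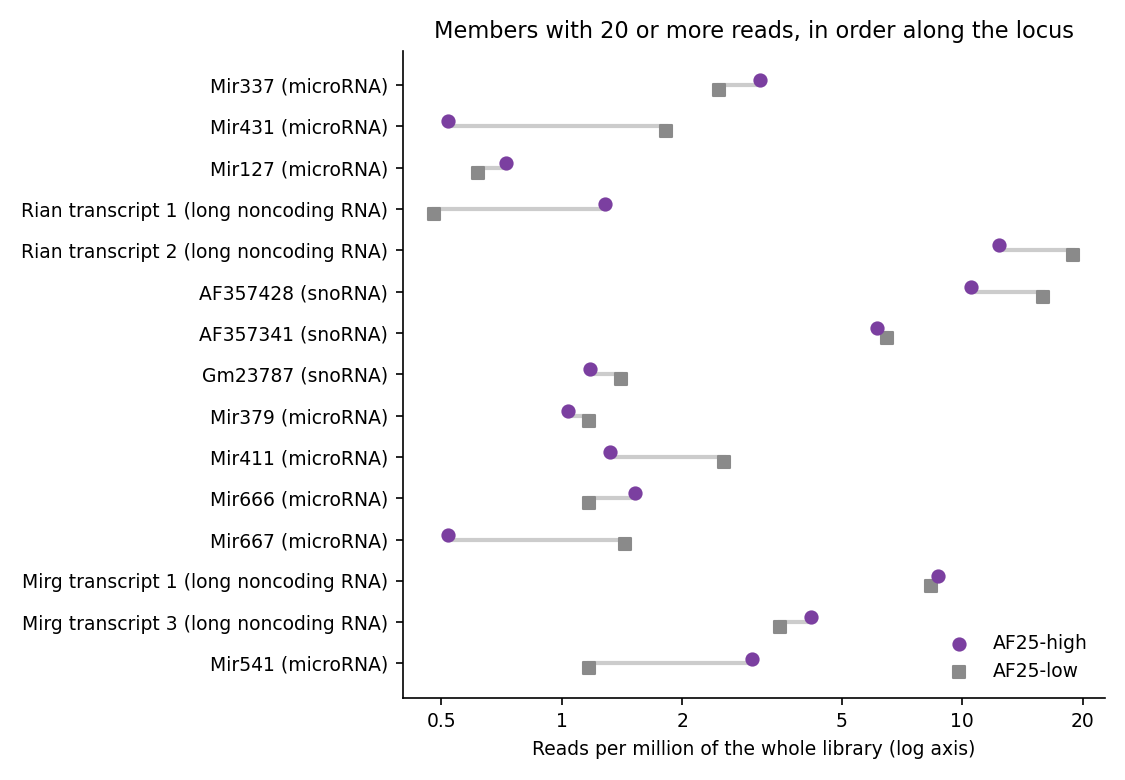
RPM, relative to the whole library (log axis), of the 15 members with 20 or more reads, from top to bottom in their order along the locus; circles are AF25-high, squares AF25-low, 1 library each. Rian transcript 2 and AF357428 had the most reads in both libraries, and the widest gaps between the libraries are those of Mir431, Mir667, Rian transcript 1 and Mir541.

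The ratios of the long noncoding RNAs did not share a direction. Rian, known as the host transcript of snoRNAs, had 2 listed transcripts, and their ratios lay on opposite sides of 1. The 3 listed snoRNAs lie outside both of these transcripts. Transcript 1 (chr12:109632798-109636273, 1 exon, 3476 bases) had 37 AF25-high and 14 AF25-low reads, a ratio of 2.67 (1.41 to 5.34). Transcript 2 (chr12:109646162-109655009, 2 exons, 8089 bases) had 357 reads in AF25-high, against 550 in AF25-low, a ratio of 0.655 (0.571 to 0.749). The ratio of these 2 ratios was 4.07 (2.11 to 8.26), a value that no scaling of the libraries changes. Ratios of 2 ratios, here and below, are estimates from the reads of both rows. They can differ slightly from the quotient of the printed ratios, and their intervals also use the reads of both rows. Because transcript 2 held most of the reads, both transcripts together stood at 394 AF25-high and 564 AF25-low reads (0.705, 0.618 to 0.803).

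AF357425 lies wholly within the single exon of Rian transcript 1, the Rian row that was higher in AF25-high. A second snoRNA gene, Gm23474, lies in the same exon. Neither had a row of its own among those used here, and reads of AF357425 itself were not analysed here. Where on the transcript the 37 AF25-high and 14 AF25-low reads lie was not analysed, so the part of the AF357425 stretch in this ratio was not tested.

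Relative to the whole library, Mirg, the host transcript of the distal microRNA cluster, differed by less than its counting error. Transcript 1, with 17 exons, had 251 reads in AF25-high, against 244 in AF25-low (1.04, 0.866 to 1.24). Transcript 3, with 2 exons, had 121 AF25-high and 102 AF25-low reads (1.20, 0.912 to 1.57). The other 2 Mirg transcripts had 0 and 4 reads in AF25-high and 1 and 6 in AF25-low. The sum over all 4 gave 1.07 (0.927 to 1.25), or 0.932 with the deposited size factors. Against the total of the Ensembl table the ratio was 1.46 for transcript 1, 1.68 for transcript 3 and 1.51 for the sum. Each of these lies above the upper end of its whole-library interval, so the reading of Mirg depended on the scaling.

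Meg3, a long noncoding RNA known as a growth suppressor, was near the limit of detection in these small RNA libraries. Its 3 transcripts had 10, 1 and 12 reads in AF25-high and 7, 0 and 12 in AF25-low. Their sum, 23 reads in AF25-high, against 19 in AF25-low, gave a ratio of 1.22 with an interval of 0.636 to 2.37, so a difference smaller than this range was not detectable at this depth. Per kilobase, the level of Meg3 transcript 3 was 0.029 RPM in AF25-high and 0.028 in AF25-low. On the same scale Rian transcript 2 had 1.53 in AF25-high and 2.34 in AF25-low, and Mirg transcript 1 had 2.29 in AF25-high and 2.21 in AF25-low.

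Summed over the 9 rows, the long noncoding RNAs had 793 AF25-high and 936 AF25-low reads (0.854, 0.776 to 0.940). Without Rian transcript 2 the sum was 436 reads in AF25-high, against 386 in AF25-low, and the ratio was 1.14 (0.991 to 1.31). One row therefore set the direction of this sum. Against the total of the Ensembl table the ratio of all 9 rows was 1.20.

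AF357428 and AF357341 were the members with the highest level for their length. AF357428 stood at 153 RPM per kilobase in AF25-high and 230 RPM per kilobase in AF25-low. AF357341 stood at 81.8 in AF25-high and 86.6 in AF25-low on the same scale, and Gm23787 at 16.1 in AF25-high and 19.3 in AF25-low. AF357428 had 304 AF25-high and 462 AF25-low reads, a ratio of 0.664 (0.572 to 0.769). AF357341, 1.57 kb downstream and 82.7% identical in sequence, had 177 reads in AF25-high, against 189 in AF25-low (0.945, 0.765 to 1.17). The ratio of the AF357428 ratio to that of AF357341 was 0.703 (0.542 to 0.911), so the 2 neighbours differed by more than counting error. Gm23787, a predicted snoRNA gene, had 34 AF25-high and 41 AF25-low reads (0.836, 0.515 to 1.35).

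The ratio of AF357428 was close to that of Rian transcript 2, 33.8 kb upstream: the ratio of one to the other was 0.986 (0.806 to 1.21). This likeness did not extend to AF357341, at 0.945 (0.765 to 1.17) against 0.655 (0.571 to 0.749) for Rian transcript 2. Rian transcript 1 stood at 2.67, and the interval of Gm23787 was too wide to place it. AF357428 starts 24.9 kb beyond the end of Rian transcript 2 and 18.2 kb beyond the end of the Rian gene in GENCODE M21, at position 109661716, which unlisted transcripts set. The 3 snoRNAs summed to 515 reads in AF25-high, against 692 in AF25-low (0.751, 0.668 to 0.843). Without AF357428 the other two summed to 211 AF25-high and 230 AF25-low reads, with a ratio of 0.925 (0.764 to 1.12). Against the total of the Ensembl table the ratio was 0.934 for AF357428, 0.922 for Rian transcript 2 and 1.06 for the sum of the 3 snoRNAs. A read that matches several loci was assigned once, to the locus with the highest expression, so reads of the runs shared between AF357428, AF357341 and their unlisted neighbours can count for one of them only.

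The 18 microRNA gene rows summed to 409 reads in AF25-high, against 425 in AF25-low, a ratio of 0.971 (0.845 to 1.11), and single genes departed from it in both directions. Of the 8 with at least 20 reads, 4 had a ratio above 1 and 4 below. Relative to the whole library, the interval lay above 1 for Mir541 and below 1 for Mir431, Mir667 and Mir411.

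Of the 14 listed microRNAs antisense to Rtl1, 4 had a row. These are microRNAs expressed opposite the paternal Rtl1 transcript, which some of them are known to cut. The listed Mir3071 has no annotated gene on the plus strand of the window, so the position rule could not take it. Mir337 had 90 AF25-high and 72 AF25-low reads (1.26, 0.914 to 1.74). Mir431, which is known from muscle regeneration in mice, had 15 reads in AF25-high, against 53 in AF25-low, a ratio of 0.285 (0.149 to 0.514). Mir127 had 21 AF25-high and 18 AF25-low reads (1.18, 0.597 to 2.34), and Mir136 had 14 in AF25-high and 17 in AF25-low. The ratio of Mir431 was lower than those of both its neighbours: the ratio of the Mir337 ratio to that of Mir431 was 4.39 (2.22 to 9.10), and that of Mir431 to Mir127 was 0.246 (0.095 to 0.618). The 4 genes together had 140 reads in AF25-high, against 160 in AF25-low (0.882, 0.698 to 1.11), or a ratio of 1.24 against the total of the Ensembl table.

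Of the microRNA genes listed at Meg3 and Rian, 0 of 5 had a row. Of the cluster from Mir379 to Mir410, 12 of 39 had one, and these 12 summed to 264 AF25-high and 259 AF25-low reads (1.03, 0.863 to 1.23). The listed Mir299b has no annotated gene on the plus strand of the window, so the position rule could not take it. The ratio of this cluster was 0.892 with the deposited size factors and 1.45 against the total of the Ensembl table. At its start, Mir379 had 30 reads in AF25-high, against 34 in AF25-low (0.890, 0.526 to 1.50). Mir411, 1.11 kb further on, had 38 AF25-high and 74 AF25-low reads (0.518, 0.341 to 0.776). The seed that both 3p arms share did not come with a resolved difference or likeness: the ratio of the Mir379 ratio to that of Mir411 was 1.71, with an interval of 0.873 to 3.37. Which arm or strand the reads came from was not analysed.

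In the middle of the cluster, 2 neighbours lay on opposite sides of 1. Mir666 had 44 reads in AF25-high, against 34 in AF25-low (1.31, 0.815 to 2.11), and Mir667, 2.92 kb downstream, had 15 AF25-high and 42 AF25-low reads (0.360, 0.186 to 0.663). The ratio of the first ratio to the second was 3.59 (1.63 to 8.19). Both are GC-rich precursors, at 64.6% for Mir666 and 62.0% for Mir667, and Mir431 was at 60.4%, the 3 highest values among the 18 microRNA gene members (29.1% to 64.6%). The other 15 members of this class included Mir541, at 43.3%, and Mir411, at 45.1%. The part of base composition in these ratios was not tested.

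Mir541, in an intron of Mirg transcript 1, had 86 reads in AF25-high, against 34 in AF25-low, a ratio of 2.55 (1.70 to 3.91). This was the microRNA gene of the locus with the highest ratio among those with at least 20 reads. Its neighbour in the list, Mirg transcript 3, stood at 1.20, and the ratio of the Mirg transcript 3 ratio to that of Mir541 was 0.470 (0.282 to 0.773). The 10 microRNA genes with fewer than 20 reads summed to 70 AF25-high and 64 AF25-low reads (1.10, 0.775 to 1.57). They included Mir329, with 19 in AF25-high and 12 in AF25-low, and Mir409, also in an intron of Mirg, with 5 in AF25-high and 3 in AF25-low.

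**Figure D2:**
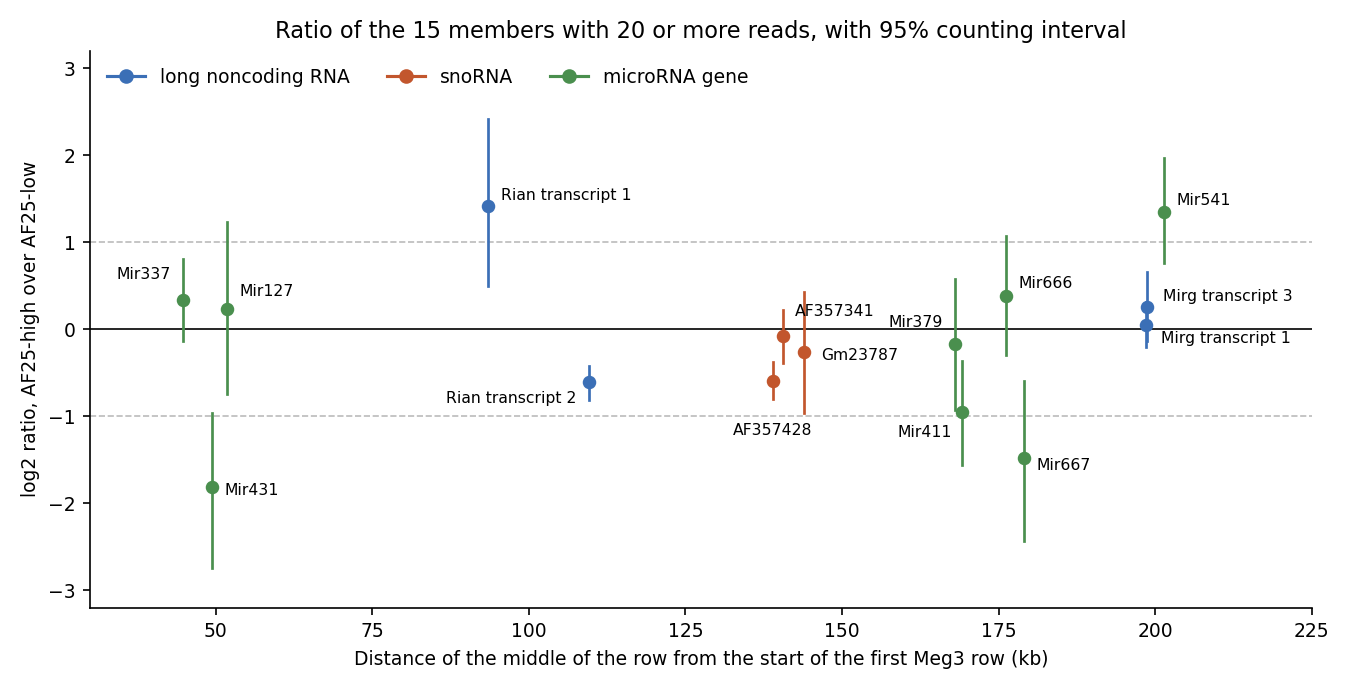
Ratio of AF25-high over AF25-low on a log2 scale for the 15 members with 20 or more reads, against the distance in kilobases of the middle of each row from the start of the first Meg3 row; bars are 95% counting intervals and dashed lines mark 2-fold. Rian transcript 1 (2.67) and Mir541 (2.55) lie above the upper line, Mir431 (0.285) and Mir667 (0.360) below the lower one.

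Neighbours on the locus differed about as often as neighbours elsewhere. Among the 14 pairs of neighbouring members with at least 20 reads, 6 had ratios on opposite sides of 1, and for 8 the ratio of the 2 ratios had an interval that excluded 1. Of 94 neighbouring pairs outside the locus, on the same strand and no further apart than the widest pair of the locus, 56.4% had an interval that excluded 1 and 50% lay on opposite sides of 1. The ratio of 2 ratios does not depend on the scaling, whereas the side of 1 does. How often an interval excludes 1 also depends on depth: the smaller row of a pair had a median of 66 reads at the locus, against 92.5 outside. The pairs of the locus share rows, and some join transcripts of the same gene (Rian transcripts 1 and 2, Mirg transcripts 1 and 3).

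The median log2 ratio of the 15 members was -0.08, and that of all 436 rows was 0.06. By class, the 4 long noncoding RNA rows had a median of 0.16, against 0.14 over 80 lincRNA rows outside the locus. The 3 snoRNAs had -0.25, against 0.05 over 133 snoRNA rows elsewhere. The 8 microRNA genes had 0.03, against -0.15 over 73 microRNA genes elsewhere. These medians are descriptions, and none was tested. The fixed list of other imprinted noncoding RNAs had 23 rows, with 369 reads in AF25-high, against 378 in AF25-low (0.985, 0.851 to 1.14). Most of these rows carry Mir297, Mir466, Mir467 or Mir669 names, which were listed for the Sfmbt2 cluster and taken by name alone. Of these names, Mir297-1 lies on chromosome 7 and the others on chromosome 2. Whether any row of the list is imprinted in these cells was not tested.

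**Figure D3:**
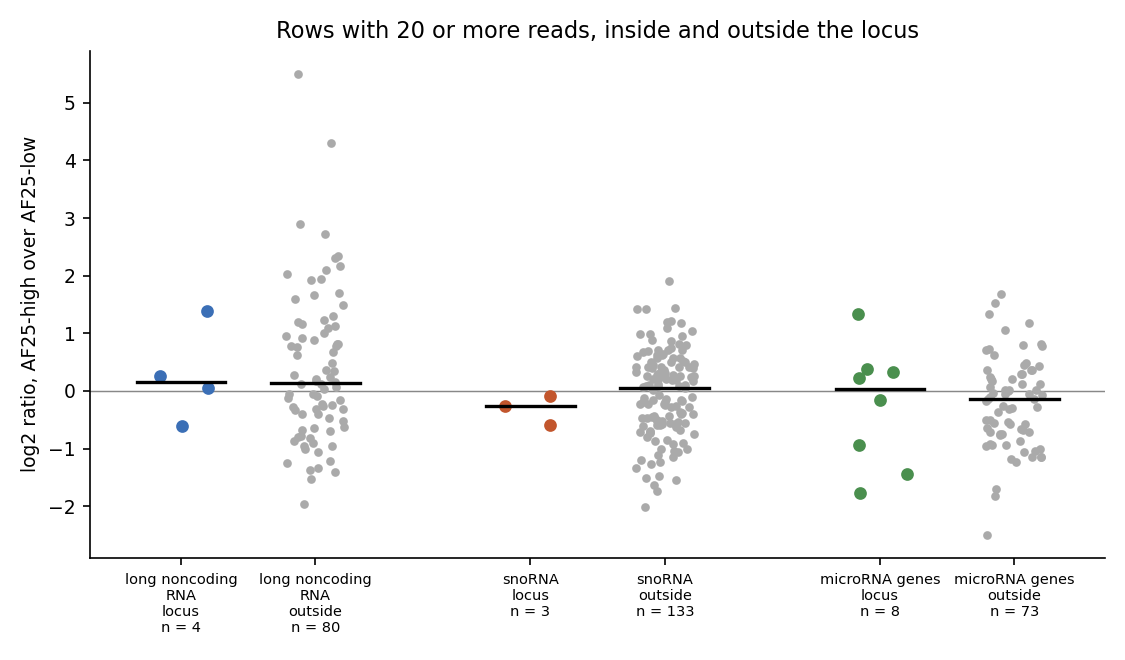
Log2 ratio of AF25-high over AF25-low (0.5 reads added to each value) for every row with 20 or more reads, split by class into rows of the locus (coloured) and rows outside it (grey); horizontal bars are medians. The rows of the locus lie within the range of their class elsewhere, with medians of 0.16 and 0.14 for long noncoding RNAs, -0.25 and 0.05 for snoRNAs and 0.03 and -0.15 for microRNA genes.

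No small RNA gene that overlaps an exon of a listed long transcript had a row of its own among those used here. The annotation holds 23 snoRNA and 59 microRNA genes on the plus strand of the window, 82 in all, and 21 of them had a row among those used here. Of the 11 that lie wholly in an exon of a listed Meg3, Rian or Mirg row, 0 had a row. Of the 6 that overlap an exon edge, 0 had a row. Of the 6 in an intron 2 had a row, Mir541 and Mir409, and of the 59 outside these transcripts 19 did. The 11 exonic genes are AF357425 and Gm23474 in Rian transcript 1, DQ267100, Gm23508 and Gm26922 in Rian transcript 2, Mir134, Mir485 and Mir410 in Mirg transcript 1, Mir377 in Mirg transcript 3, and Mir1906-1 and Mir770 in Meg3. Whether reads of these genes were counted under the long transcript was not analysed, and the values of Rian and Mirg above carry that limit.

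**Figure D4:**
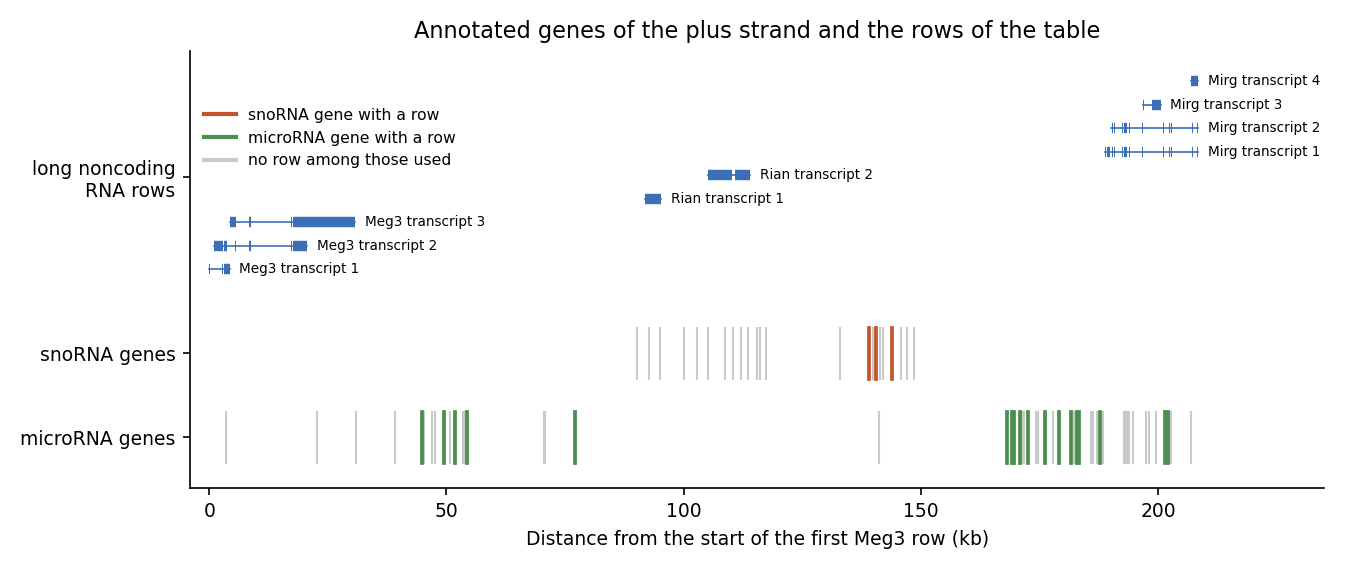
Map of the plus strand of the locus, in kilobases from the start of the first Meg3 row: exons (blocks) and introns (lines) of the 9 long noncoding RNA rows, and below them the annotated snoRNA and microRNA genes, in colour where they had a row and in grey where none was used. The 3 listed snoRNAs and 16 of the 18 listed microRNA genes lie outside the listed long transcripts.

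The 7 bases AACCCCA, the reverse complement of TGGGGTT, were looked for in the transcripts of the rows on their sense strand. They stood in 0 of the 21 short members, against 3 of 416 other rows of up to 150 bases (0.721%). Of the 9 long members, 3 held a match and 6 held none: Rian transcript 1 held 1, Rian transcript 2 held 2 and Mirg transcript 3 held 1. Of other rows of like length (0.8 to 1.25 times), 24.9% held a match for Rian transcript 1, 44.4% of 18 rows for Rian transcript 2 and 13.3% for Mirg transcript 3. For members without a match the share was 32.3% at the length of Meg3 transcript 2, 28.7% at that of Mirg transcript 1 and 25.1% at that of Mirg transcript 2. A match is a description of the letters and not a site.

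**Figure D5:**
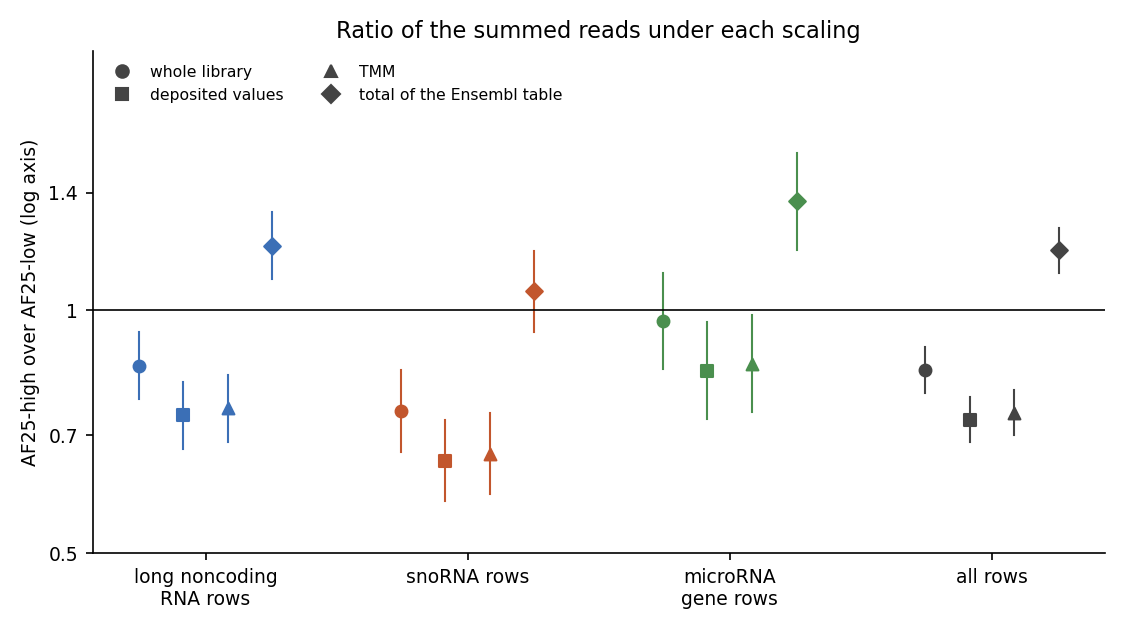
Ratio of the summed reads, AF25-high over AF25-low (log axis), for each class of members and for all rows, under 4 scalings of the libraries; bars are 95% counting intervals. With the whole library as the base the ratios are 0.854, 0.751, 0.971 and 0.843, and with the total of the Ensembl table they are 1.20, 1.06, 1.37 and 1.19, on the other side of 1. With the deposited size factors and with TMM all of them lie below 1. The whole-library interval of the microRNA genes and the table-total interval of the snoRNAs hold 1.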

How the data were processed

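The authors sequenced small RNA (DNBseq), mapped reads with sRNAbench and Bowtie to GRCm38 and deposited normalized values (tool versions: not given in the sources used here). These deposited signal values were read counts divided by a size factor (AF25-high over AF25-low, 1.14). Dividing by the smallest value above 0 of each column gave whole reads for 100% of values (tolerance 1e-06). Deposited fold changes and p-values, and the RNAcentral table, were not used. With 1 library per condition no count test could be run. Library totals were the median of tRNA reads over the RPM of the study's anticodon list (38 anticodons; 12 and 13 within 1% of the median in AF25-high and AF25-low). Identifiers were matched to GENCODE M21 (1571 of 1596). Every member reaching 20 reads in its higher library is named; log2 ratios used a pseudocount of 0.5 reads. Alternatives were the deposited scaling, the table total, TMM (edgeR 4.0.16, scaling only), other minimums and pseudocounts, and leaving out the top row. Members and lists were chosen with earlier results of these data known. Python 3.11.15, SciPy 1.17.1 and Biopython 1.88 were used.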

Additional observations from a re-analysis of the deposited data

How the results depend on the processing

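Relative to the whole library, the deposited size factors shifted every log2 ratio by -0.20, TMM by -0.18 and the total of the Ensembl table by 0.49. With the deposited size factors the ratio was 0.741 for the long noncoding RNAs, 0.651 for the snoRNAs, 0.842 for the microRNA genes and 0.732 for all rows. With TMM it was 0.757 for the long noncoding RNAs, 0.665 for the snoRNAs and 0.747 for all rows. With the total of the Ensembl table it lay above 1, at 1.20 for the long noncoding RNAs, 1.06 for the snoRNAs, 1.37 for the microRNA genes and 1.19 for all rows, and the median log2 ratio of the members was 0.41. That total is smaller in AF25-high, 375931 reads against 533803 in AF25-low. Without the row with the most reads the ratio was 1.14 for the long noncoding RNAs, 0.925 for the snoRNAs and 0.913 for all rows. A minimum of 50 reads left 2 of the 4 members at least 2-fold apart, since fewer rows were tried. Of the 15 named members, Mirg transcript 1 lay on the other side of 1 with the deposited size factors and with TMM. AF357341, Gm23787 and Mir379 did so with the table total. All 4 have whole-library intervals that hold 1. Among the 15, 1 moved beyond its interval with the deposited size factors (Rian transcript 2), 6 with the table total and 0 with TMM. The 6 were Mir337, Rian transcript 2, AF357428, AF357341, Mirg transcript 1 and Mirg transcript 3. With the table total they stood, in that order, at 1.77, 0.922, 0.934, 1.33, 1.46 and 1.68. Rian transcript 2 and AF357428 thus came close to 1, although their whole-library intervals lie below it. No paired analysis was possible because there was 1 library per condition. Depth limits the members below 20 reads, and among the named ones Mir127 (0.597 to 2.34) and Mir666 (0.815 to 2.11), whose intervals hold both 1 and a 2-fold difference.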
